A study of Mus musculus with 4 samples.

Results

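The 7 genes described here, *Pkd1*, *Pkd2*, *Pkhd1*, *Bicc1*, *Glis2*, *Glis3* and *Invs*, are genes in which variants cause cystic kidney disease in people, in mice or in both. They were taken by symbol from the 31053 genes counted, and each symbol matched 1 gene. Their levels were measured by single-nucleus RNA-seq in the kidneys of 4 male mice aged 12 weeks, in slices from which cortex had been trimmed to enrich for medulla. The 2 knockout mice were *Hoxb7Cre+;Tfap2a fl/fl* and the 2 controls were Cre-negative littermates (labelled Cre-), so that both groups carried the floxed *Tfap2a* alleles. *Hoxb7Cre* drives recombination in derivatives of the ureteric bud, that is the collecting duct and the lower urinary tract epithelium, and it is not active in proximal tubule or thick ascending limb. The collecting ducts of the knockout mice dilate with age, and the questions here were where the cyst genes are expressed and whether their level differed in the knockout mice.

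Cyst proteins mostly act at or through the primary cilium, a sensory projection on the luminal side of tubule cells. Polycystin-1, encoded by *Pkd1*, is a large membrane protein that pairs with polycystin-2, a cation channel encoded by *Pkd2*, and loss of either causes dominant polycystic kidney disease. Fibrocystin, encoded by *Pkhd1*, is a membrane protein of the cilium whose loss causes the recessive form, which begins in the collecting duct in people. Inversin, encoded by *Invs*, resides in the proximal part of the cilium and causes nephronophthisis when lost. *Glis2* and *Glis3* encode zinc finger transcription factors, and *Bicc1* encodes an RNA-binding protein that controls the translation of selected mRNAs.

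Each mouse gave 1 library of 22179410 to 44964099 UMIs, a UMI being a tag that marks 1 captured RNA molecule. A total of 27343 nuclei were kept, and 25746 of them fell into 12 classes named from marker genes. Those of the nephron were podocytes (Podo), the proximal tubule (PT), the thin limb of Henle's loop (tL), its thick ascending limb (TAL), the distal convoluted tubule (DCT) and, joining it to the duct, the connecting tubule (CNT). The duct gave principal cells (CD-PCs), which reabsorb water and sodium, and intercalated cells (CD-ICs), which handle acid. The others were deep medullary epithelium of the pelvis (DMEP), endothelial (EC), interstitial (IntC) and immune cells (ImC). Between 7 and 18 cell barcodes were shared by any 2 libraries. Nuclei of 1 mouse share that animal, so the UMIs of a class were added up within each mouse and divided by the class total, scaled to 1000000 UMIs (CPM). None of the 7 genes was among the 2000 variable genes from which the clusters were made. CPM values were compared between classes and between mice for 1 gene at a time. Long genes can yield more UMIs from nuclei where intronic reads are counted, and the 7 genes differ in length.

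*Tfap2a* itself, which was deleted in the knockout mice, had 80 and 188 UMIs in CD-PCs of control mice 1 and 2, and 68 and 79 UMIs in those of knockout mice 1 and 2. These amount to 57.7 and 98.5 CPM against 66.1 and 106.4 CPM, and the groups overlapped. The libraries capture RNA by its 3′ end and need not read the floxed exons, so these counts do not check the genotype. DMEP of the control mice held 10 and 11 *Tfap2a* UMIs, and DMEP of both knockout mice held 0.

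AP-2 factors such as TFAP2A bind the sequence GCCNNNGGC. This was searched on both strands, which are covered by 1 search because the motif is its own reverse complement, from 250 bases before to 50 bases after a transcript start given for each gene by RefSeq (GRCm38.p6, the assembly that mm10 names). For the 5 members searched, this start lies inside the span of the gene rather than at its outer end. Of the 5 members with a promoter in that table, *Pkd1*, *Pkd2*, *Pkhd1*, *Glis3* and *Invs*, only *Invs* had a match. A match was found in 16.6% of all 32851 promoters in the table. The 250 bases before this *Invs* transcript start are shown because they hold this match, at chr4:48279510-48279759 on the plus strand, with the match in capitals.
Invs: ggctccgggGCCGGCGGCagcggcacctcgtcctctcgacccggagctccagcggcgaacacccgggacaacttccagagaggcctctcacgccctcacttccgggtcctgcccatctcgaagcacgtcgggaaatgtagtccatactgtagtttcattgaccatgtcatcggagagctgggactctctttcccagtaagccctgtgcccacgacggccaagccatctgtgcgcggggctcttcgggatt
The match begins 241 bases before that transcript start. In GRCm38.p6, *Invs* spans chr4:48279707-48431956, *Pkd1* chr17:24548689-24596514, *Pkd2* chr5:104453982-104505819 and *Pkhd1* chr1:20057779-20618082. *Bicc1* spans chr10:70922830-71159690, *Glis2* chr16:4594320-4625141 and *Glis3* chr19:28258851-28680265.

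Levels were first compared across the 12 classes of the control mice. With CD-PCs taken as 1 class, the genes fell into 2 patterns. *Pkhd1*, *Bicc1*, *Glis2*, *Glis3* and *Pkd2* were highest in tubule segments upstream of the collecting duct, and *Pkd1* in interstitial and endothelial cells. *Glis2* and *Glis3* were higher still in a part of the CD-PCs, as given below. *Invs* was highest in proximal tubule. None of the 7 was highest in CD-PCs, which ranked between 6 and 10 among the 12 classes. Each class was tested against the average fitted log2 level over the other 11 classes with edgeR's quasi-likelihood test. Of 84 tests of a member in a class, 28 were called higher and 19 lower at a Benjamini-Hochberg adjusted p under 0.05, where 13.2% and 4.3% of all gene and class combinations were called higher and lower. The class sums of 1 mouse share the animal and are not independent, and how far this moves these p-values was not tested. With nuclei under 1% mitochondrial UMIs, 23 tests were called higher and 5 lower, and over all genes the shares were 10.5% and 0.637%.

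**Figure D1:**
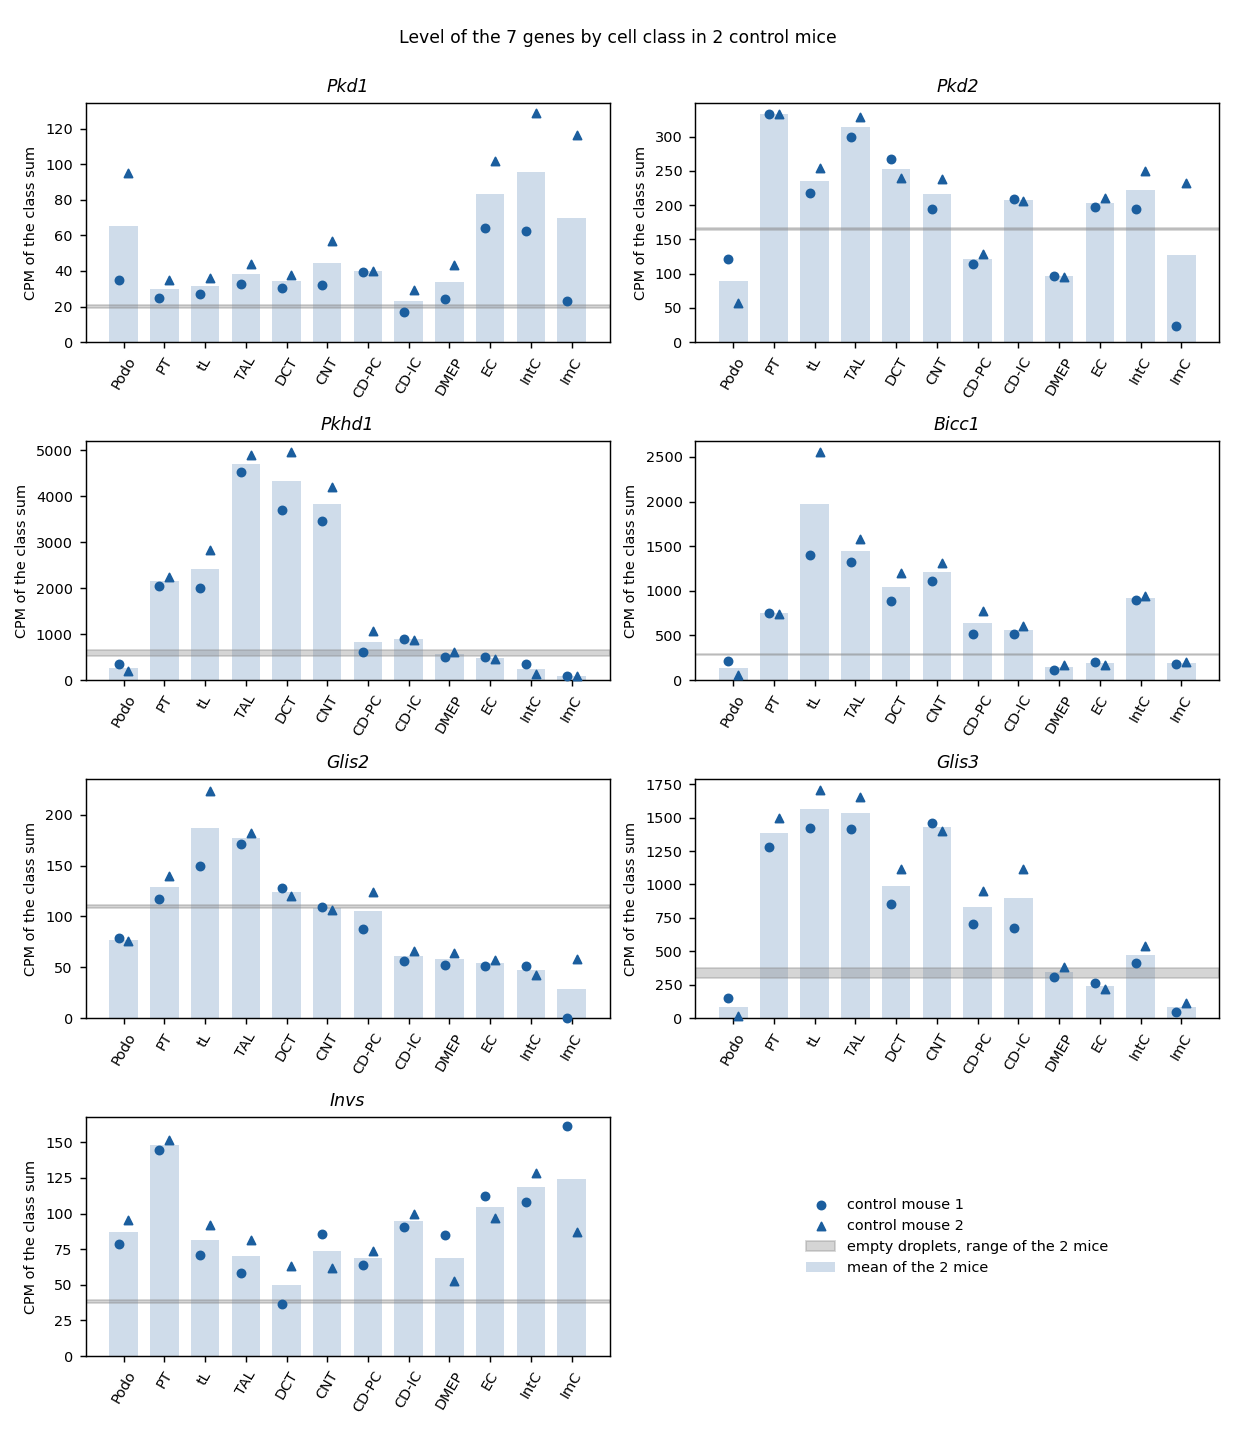
Level of each gene (CPM of the class sum, linear axis) in 12 cell classes of control mice 1 and 2 (points) with their mean (bars), beside the level in empty droplets (grey band, range of both mice). The mean of *Pkhd1* peaked in TAL, with 4524 and 4883 CPM, beside 604 and 1074 CPM in CD-PCs. The mean of *Pkd1* was highest in interstitial cells, although endothelial cells were higher in control mouse 1.

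*Pkhd1* had the steepest pattern along the tubule. It reached 4524 and 4883 CPM in TAL of control mice 1 and 2, 3691 and 4951 CPM in DCT, and 3467 and 4188 CPM in CNT. In thin limb it had 2005 and 2820 CPM, and in proximal tubule 2048 and 2250 CPM. These 5 classes were called higher than the mean of the others, with TAL higher by 2.76 ± 0.15 (SE) on the log2 scale at an adjusted p of 8.9e-78. CD-PCs had only 604 and 1074 CPM and CD-ICs 899 and 883 CPM, so that the mean in TAL was 5.61 times that in CD-PCs. The CD-PC level was not called different from the mean of the other classes. The level in interstitial cells was 348 and 136 CPM and that in immune cells 92.2 and 87.2 CPM. Empty droplets of the control mice held *Pkhd1* at 666 and 518 CPM, so podocytes, endothelial, interstitial and immune cells lay below the free RNA of their own mouse, as did CD-PCs and DMEP of control mouse 1. Neighbours in the order of classes whose mice did not overlap were CNT above thin limb, proximal tubule above CD-ICs, DMEP above endothelial cells, endothelial cells above podocytes, and interstitial above immune cells. DCT overlapped with both TAL and CNT, while both TAL values lay above both CNT values.

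The partner genes *Pkd1* and *Pkd2* did not share a pattern. *Pkd2* had 333 CPM in proximal tubule of both control mice, 299 and 328 CPM in TAL, and 267 and 240 CPM in DCT. Proximal tubule was called higher than the mean of the other classes by 1.30 ± 0.14 on the log2 scale, with an adjusted p of 8.4e-19, as were TAL and DCT. CD-PCs had 114 and 128 CPM, which was called lower by 0.66 ± 0.18 (log2 difference of -0.66, adjusted p = 0.0012), and DMEP was called lower too. Both CD-PC values lay below the 163 and 166 CPM of empty droplets. *Pkd1*, in contrast, had 62.7 and 129 CPM in interstitial cells and 64.4 and 102 CPM in endothelial cells, the 2 classes called higher, by 1.13 ± 0.34 and 0.93 ± 0.21. In CD-PCs it had 39.6 and 39.8 CPM and in TAL 32.6 and 44.1 CPM. CD-ICs, with 17.2 and 29.4 CPM, were the only class called lower. The interstitial value rests on 11 and 18 UMIs, and no neighbours in the order of classes were apart in both mice.

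The transcription factor genes followed the nephron. *Glis3* had 1421 and 1704 CPM in thin limb, 1414 and 1651 CPM in TAL, 1457 and 1403 CPM in CNT, and 1277 and 1494 CPM in proximal tubule. These 4 classes overlapped with one another in the control mice. *Glis3* was also the only member called higher in CD-PCs, at 705 and 952 CPM (log2 difference of 0.60 ± 0.17, adjusted p = 0.0025), and it was called higher in CD-ICs at 677 and 1116 CPM. Interstitial cells had 410 and 536 CPM, and empty droplets of the same mice had 373 and 299 CPM. *Glis2* had 150 and 224 CPM in thin limb and 172 and 182 CPM in TAL, with TAL called higher by 1.42 ± 0.16. In CD-PCs *Glis2* had 87.2 and 124 CPM, and empty droplets held 109 and 111 CPM.

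*Bicc1* was highest in thin limb, at 1396 and 2551 CPM, followed by TAL at 1320 and 1578 CPM and CNT at 1113 and 1309 CPM. Both thin limb and TAL were called higher than the mean of the others, by 1.96 ± 0.15 and 1.77 ± 0.15 on the log2 scale. The thin limb of control mouse 2 was drawn in part from a cluster led by *Psca* and *Lypd2*, which gave 106 of its 384 nuclei and 19 of 186 in control mouse 1. Within the other thin limb cluster *Bicc1* was 1432 and 2772 CPM in the 2 mice. Unlike *Pkhd1*, *Bicc1* was called higher in interstitial cells, with 901 and 937 CPM against 286 and 289 CPM in empty droplets. CD-PCs had 512 and 769 CPM. *Invs* had 144 and 151 CPM in proximal tubule, the only class called higher, by 1.22 ± 0.14 with an adjusted p of 2.7e-16. It was called lower in DCT at 36.9 and 63.1 CPM, and CD-PCs had 64.1 and 73.4 CPM.

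As a description over the 12 classes, the mean log2(CPM + 1) of the control mice correlated most between *Glis2* and *Pkhd1* (Pearson's r = 0.887), *Glis3* and *Pkhd1* (0.880) and *Bicc1* and *Glis3* (0.875). *Pkd1* and *Pkd2* had an r of -0.26. The classes of a mouse share a library, its depth and its free RNA. Among 14943 genes with at least 50 UMIs, the 3 genes most like *Pkhd1* were *Plekha7* (r = 0.960), *4930556J24Rik* and *Shank2*, and those most like *Pkd2* were *Tns1* (0.950), *Rbpms2* and *Adgra3*. *Glis3* was most like *Rnf32* (0.961), with *4732491K20Rik* also among its closest, *Glis2* most like *Ugt8a* (0.905), *Narf* and *4930556J24Rik*, and *Invs* most like *Lrrc8b* (0.931), *Ctbs* and *Pyroxd2*. For *Bicc1* these were *Gm45812* (0.917), *Gm28874* and *1700003E16Rik*, and for *Pkd1* they were *Ifi27l2a* (0.926), *Tmem204* and *Lfng*. No member was among the 3 genes most like another.

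Within the 1305 CD-PC nuclei the members were far from uniform. CD-PCs change along the duct from cortex to papilla, and 3 groups were named by thresholds on the preset genes *Scnn1b*, *Aqp3* and *Cryab*, with 184 Scnn1b-high, 354 Aqp3-high and 660 Cryab-high nuclei. A marker counted for a subcluster where it was seen in at least 5% of nuclei and at 2 times the median of the subclusters or more. A further 59 nuclei got no name, since *Scnn1b* was seen in 20.3% of them, where 25% was required. Their *Cryab* level, 1391 CPM, was also under 0.25 of that of the highest subcluster. In these nuclei 0 of the CD-PC markers were raised in this way, although *Aqp2* was present at 4207 CPM. Another 48 were set aside with 9 of 9 proximal tubule markers raised. *Aqp3* encodes a basolateral water channel that is high in the outer medullary duct, *Scnn1b* encodes a sodium channel subunit of the cortical duct, and *Cryab* encodes a chaperone that is high in the inner medulla. *Pkhd1* had 1973 and 2109 CPM in Aqp3-high nuclei of control mice 1 and 2 and 2593 and 3566 CPM in Scnn1b-high nuclei. In Cryab-high nuclei it had only 96.6 and 113 CPM. The Aqp3-high level was 20.4 and 18.7 times the Cryab-high level in the control mice and 12.5 and 18.6 times in the knockout mice. The Cryab-high level lay below the *Pkhd1* level of free RNA in all 4 mice, which ranged from 518 to 911 CPM. With each nucleus thinned to 1000 UMIs, *Pkhd1* was seen in 78.3% and 85.5% of Aqp3-high nuclei of the control mice and in 9.68% and 7.62% of Cryab-high nuclei, beside 13.0% and 12.0% of endothelial cells, which should lack it. Without thinning the shares were 100% and 99.3% in Aqp3-high nuclei, 22.1% and 23.3% in Cryab-high nuclei, and 15.2% and 11.9% in endothelial cells. After thinning, the share in Cryab-high nuclei of the control mice was below that of endothelial cells. The median depth in the control mice was 3341 UMIs in Aqp3-high nuclei, 4543 in Cryab-high nuclei and 1485 in endothelial cells, of which 1, 0 and 113 nuclei were too shallow to thin.

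**Figure D2:**
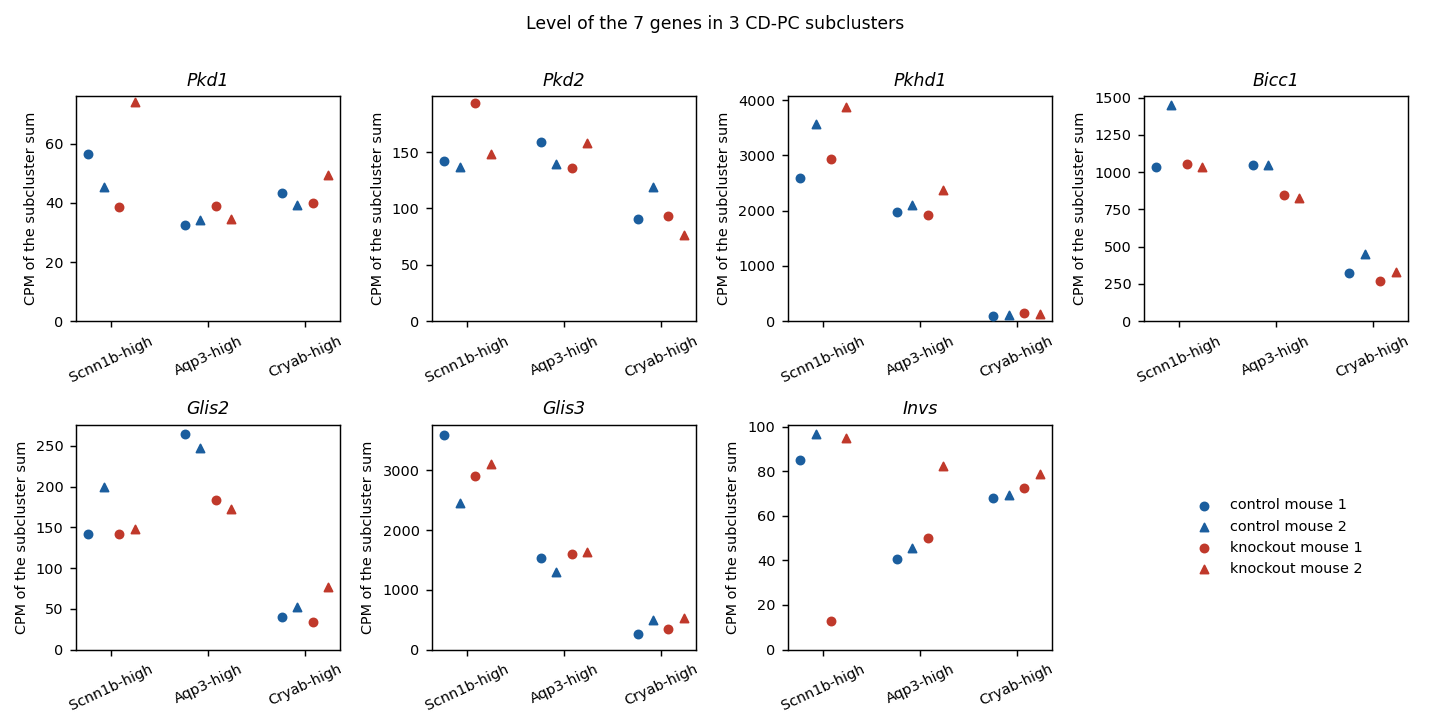
Level of each gene (CPM of the subcluster sum, linear axis) in 3 CD-PC subclusters, 1 point per mouse, controls in blue and knockouts in red. *Pkhd1*, *Bicc1*, *Glis2* and *Glis3* were lower in Cryab-high than in Aqp3-high nuclei of all 4 mice, whereas *Pkd1* was higher in Cryab-high nuclei of all 4 mice and *Invs* in those of 3.

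The other members split in the same comparison. *Bicc1* in Aqp3-high nuclei was 3.26 and 2.33 times its Cryab-high level in control mice 1 and 2, *Glis2* was 6.60 and 4.77 times and *Glis3* was 5.94 and 2.60 times. All 3 were also higher in Aqp3-high than in Cryab-high nuclei of both knockout mice. The levels of *Glis3* were highest in Scnn1b-high nuclei, with 3599 and 2462 CPM in the control mice, above every one of the 12 classes. *Glis2* in Aqp3-high nuclei, at 264 and 248 CPM in the control mice, was also above every one of the 12 classes. *Pkd2* differed less, with 159 and 139 CPM in Aqp3-high against 90.5 and 119 CPM in Cryab-high nuclei. *Pkd1* and *Invs* ran the other way in the control mice, with *Invs* at 40.7 and 45.8 CPM in Aqp3-high and 67.9 and 69.2 CPM in Cryab-high nuclei. The subclusters were made from expression, so these differences are given with no test. The Cryab-high share of CD-PC nuclei was 63.3% and 46.0% in control mice 1 and 2, and 43.0% and 50.2% in knockout mice 1 and 2, so that the level over all CD-PCs of a mouse depends on this share as well as on the level within each subcluster.

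No member was called as different between knockout and control mice in any class. Members were tested in 82 of 84 combinations, since *Pkd1* and *Glis2* had under 10 UMIs in immune cells. At an adjusted p under 0.05 edgeR called 0, and the lowest adjusted p was 0.997. DESeq2 called 0 as well. Over all genes and the 12 classes, edgeR called 0.00376%, which is 5 of 133035 tests. At an unadjusted p under 0.05, edgeR gave 4 of the 82 tests, *Bicc1* in TAL and in immune cells, *Invs* in CD-ICs and *Glis3* in podocytes, where 2.94% of tests over all genes passed, and DESeq2 gave 1, *Bicc1* in TAL. Fitted log2 changes were below 0 in 56 of the 82 tests, and in 49.5% of tests over all genes.

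**Figure D3:**
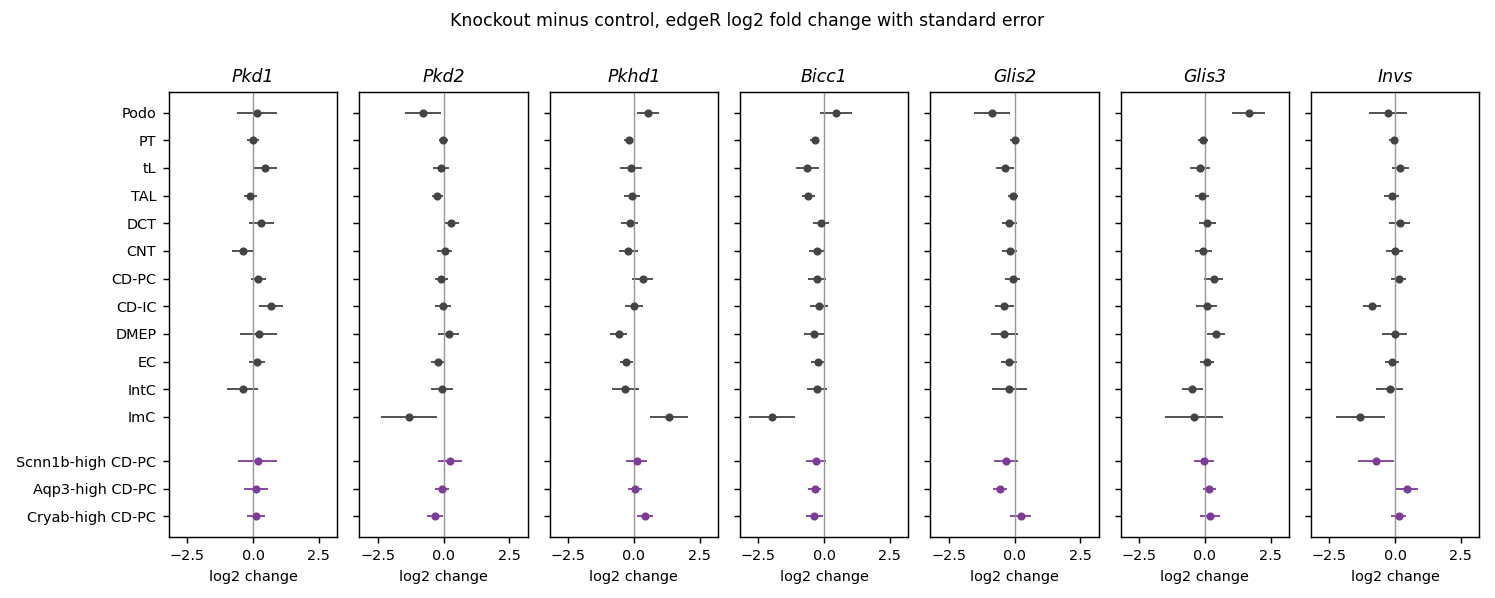
Log2 fold change of each gene, knockout minus control, fitted by edgeR on sums of 2 mice per group, with its standard error (bars), for 12 classes (dark grey) and 3 CD-PC subclusters (purple). *Bicc1* lay below 0 in 11 of 12 classes, with -0.61 in TAL and -0.36 in PT, and the widest errors were in immune cells.

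In CD-PCs, the targeted cells of the dilating duct, fitted changes ranged from -0.27 to 0.34 on the log2 scale. *Glis3* had 705 and 952 CPM in control mice 1 and 2 and 1015 and 1099 CPM in knockout mice 1 and 2 (log2 change of 0.34 ± 0.35). The knockout values lay above both control values, as for 13.9% of all genes tested in CD-PCs, and the change was 0.13 without control mouse 1, 0.59 without control mouse 2 and 0.22 with nuclei under 1% mitochondrial UMIs. *Pkhd1* had 604 and 1074 CPM against 1020 and 1111 CPM (0.33 ± 0.39), and only control mouse 1 stood apart. The *Pkhd1* change was -0.03 without control mouse 1, 0.82 without control mouse 2 and 0.17 with nuclei under 1% mitochondrial UMIs. Control mouse 1 also had the highest share of Cryab-high nuclei, at 63.3%, and the part of this share in the *Pkhd1* and *Glis3* values was not tested. *Bicc1* had 512 and 769 CPM against 551 and 525 CPM (-0.27 ± 0.34), and without control mouse 2 the change was 0.08. *Pkd1* had 39.6 and 39.8 CPM against 40.9 and 51.2 CPM (0.19 ± 0.29), again with both knockout mice above both control mice. *Pkd2* had 114 and 128 CPM against 121 and 110 CPM (-0.08 ± 0.26), *Glis2* had 87.2 and 124 CPM against 97.3 and 106 CPM (-0.07 ± 0.28), and *Invs* had 64.1 and 73.4 CPM against 61.3 and 91.6 CPM (0.13 ± 0.29). The groups of *Pkd2*, *Glis2* and *Invs* overlapped. Markers of neighbouring segments also differed within the CD-PC nuclei without overlap. The 6 markers of CNT summed to 636 and 678 CPM in the control mice and to 1897 and 1092 CPM in the knockout mice, with 1 of the 6 at 0 in control mouse 1 and 0 at 0 in the others. Of these 6, *Scnn1b* and *Calb1* are also listed markers of the cortical duct within CD-PCs. *Scnn1b* alone had 135 and 222 CPM against 308 and 269 CPM. The 5 markers of DCT, with 0 at 0 in each mouse, summed to 93.0 and 120.5 CPM against 243 and 291 CPM. The 7 markers of TAL summed to 1079 and 895 CPM against 641 and 391.8 CPM, with 1 of the 7 at 0 in knockout mouse 2 and 0 at 0 in the others. The part of these differences in the values of the members in CD-PCs was not tested.

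The subclusters gave no called change either, with 0 of 21 tests at an adjusted p under 0.05, a lowest adjusted p of 0.999, and 0 at an unadjusted p under 0.05 by edgeR or by DESeq2. Over all genes, 0.0102% of tests in the 3 subclusters and 0.019% in Aqp3-high nuclei were called. *Pkhd1* in Aqp3-high nuclei, in which 4 of 4 listed markers of the cortical duct and 1 of 4 of the outer medullary duct were raised over the other subclusters, was 1973 and 2109 CPM against 1925 and 2381 CPM (log2 change of 0.04 ± 0.25). In Cryab-high nuclei *Pkhd1* was 96.6 and 113 CPM against 154 and 128 CPM (0.42 ± 0.29, adjusted p = 1.00 by edgeR), and the change was 0.12 with called doublets left out. These levels lay below free RNA, which itself held more *Pkhd1* in the knockout mice, at 812 and 911 CPM against 666 and 518 CPM. The 5 markers of DCT, a class where *Pkhd1* is high, summed to 68.9 and 63.5 CPM in Cryab-high nuclei of the control mice and to 240 and 211 CPM in those of the knockout mice, with 1 of the 5 at 0 in knockout mouse 2 and 0 at 0 in the others. The 6 markers of CNT summed to 142 and 177 CPM against 672 and 209 CPM, with 1 of the 6 at 0 in each mouse but knockout mouse 1, which had 0. *Slc12a3*, which encodes the sodium chloride transporter of DCT, was the only gene called in Cryab-high nuclei, with 11.3 and 9.62 CPM against 100.9 and 128 CPM. The part of these differences in the *Pkhd1* value was not tested. *Glis2* in Aqp3-high nuclei was 264 and 248 CPM in the control mice and 183 and 172 CPM in the knockout mice (-0.55 ± 0.26), and *Bicc1* was 1046 and 1047 CPM against 845 and 826 CPM (-0.36 ± 0.24). With nuclei under 1% mitochondrial UMIs these changes were -0.24 and -0.54. For both genes the knockout values lay below both control values, an order that 15.6% of all genes tested in Aqp3-high nuclei had. *Pkd1*, *Glis3* and *Invs* had both knockout values above both control values there, with *Glis3* at 1538 and 1293 CPM against 1598 and 1638 CPM. Over the 3 subclusters, knockout mice were below control mice in 2 of 21 combinations and above them in 6. The share of all genes above was not measured in any subcluster, and the share below only in Aqp3-high nuclei. These counts can therefore not be set against those of all genes.

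The 7 markers of TAL, where *Glis2*, *Bicc1* and *Pkhd1* are high, summed to 2763 and 1104 CPM in Aqp3-high nuclei of the control mice and to 603 and 255 CPM in those of the knockout mice. Each knockout mouse had 1 of the 7 at 0, and the control mice had 0. Of the 2 genes called there, *Slc12a1*, which encodes the sodium transporter of TAL, is on that list, with 1058 and 383 CPM against 83.3 and 48.2 CPM. The 6 markers of CNT summed to 1290 and 1070 CPM in the control mice and to 2981 and 2216 CPM in the knockout mice. Among them *Scnn1b*, also a listed marker of the cortical duct, had 456 and 460 CPM against 672 and 729 CPM. The 9 CD-PC markers summed to between 16250 and 17200 CPM in all 4 mice. The part of these differences in the values of *Glis2* and *Bicc1* was not tested.

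*Bicc1* had knockout values below the control values in more classes than any other member, with no class called, and it was singled out after its values were seen. In TAL it had 1320 and 1578 CPM in control mice 1 and 2 and 988 and 926 CPM in knockout mice 1 and 2 (log2 change of -0.61 ± 0.25, adjusted p = 1.00 by edgeR). In proximal tubule it had 749 and 745 CPM against 562 and 616 CPM (-0.36 ± 0.16). Both classes lie outside the ureteric lineage in which *Hoxb7Cre* acts. Both knockout mice were below both control mice, where 15.1% of all genes tested in TAL and 14% in proximal tubule had this order. Each of the 2 TAL clusters and each of the 6 proximal tubule clusters showed it too, as did 3.71% of all genes tested in TAL and 0.242% of those tested in proximal tubule for all clusters of the class, and clusters of 1 mouse are not independent. With nuclei thinned to 1000 UMIs, *Bicc1* was seen in 70.3% and 79.1% of TAL nuclei of the control mice and in 59.1% and 57.9% of those of the knockout mice, beside 10.3%, 8.23%, 6.99% and 5.84% of endothelial cells. Without thinning the shares were 87.7% and 92.8% against 79.5% and 81.0% in TAL, and 15.7%, 11.9%, 14.0% and 11.9% in endothelial cells. Thinning left out 47 TAL nuclei of the control mice and 43 of the knockout mice, and 113 and 86 endothelial cells. The median depth of TAL nuclei was 1984.5 UMIs in the control mice and 1939 UMIs in the knockout mice, and that of endothelial cells was 1485 and 1483 UMIs.

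**Figure D4:**
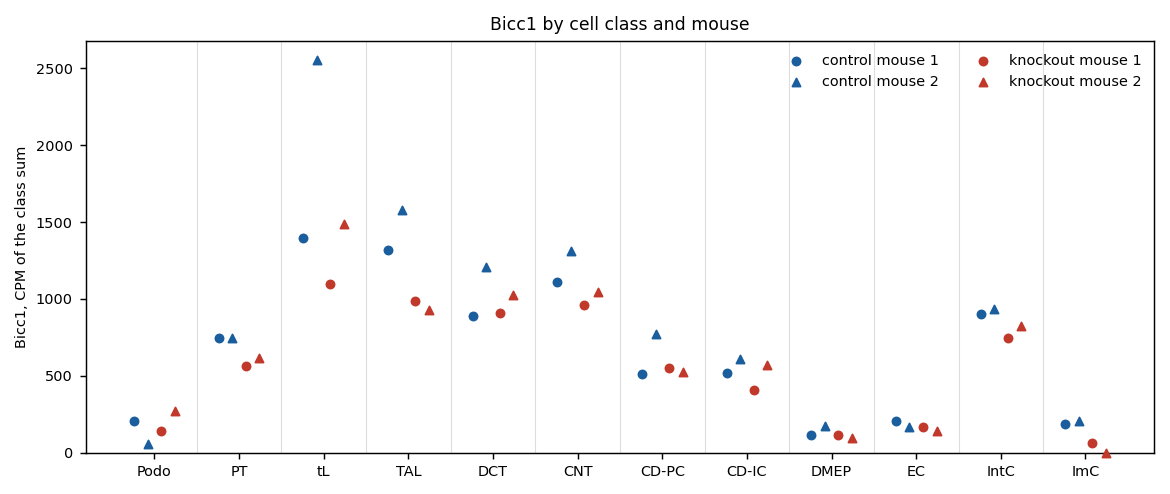
*Bicc1* level (CPM of the class sum, linear axis) in 12 classes, 1 point per mouse, controls in blue and knockouts in red. In TAL the control mice had 1320 and 1578 CPM and the knockout mice 988 and 926 CPM, while the groups overlapped in CD-PCs, DCT and CD-ICs.

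Over the 12 classes, *Bicc1* had both knockout mice below both control mice in 6, which were PT, TAL, CNT, endothelial, interstitial and immune cells, and never the reverse. Over all genes and classes, 15% of tests had this order, and 1.62% of the 3150 genes tested in all 12 classes had it in 6 classes or more. In endothelial cells, at 205 and 169 against 168 and 140 CPM, all values lay below the 286 to 312 CPM of empty droplets. In immune cells *Bicc1* had 184 and 204 CPM in the control mice, 60.3 CPM in knockout mouse 1 and 0 UMIs in knockout mouse 2, which allows up to 200.4 CPM, and the 4 mice held 19 UMIs in all. Empty droplets held *Bicc1* at 286 and 289 CPM in the control mice and at 298 and 312 CPM in the knockout mice, which were thus the higher group there. *Glis2* had the same order in 5 of 11 classes, as 2.96% of the 5127 genes tested in those 11 did in 5 or more. Its log2 change was -0.18 ± 0.28 in CNT and -0.20 ± 0.29 in DCT. With called doublets left out, *Glis2* had this order in 3 classes. In podocytes, CD-ICs and interstitial cells, all its values lay below the 100 to 111 CPM of empty droplets. The podocyte values rest on 19 UMIs in all and the interstitial values on 22. In CNT it had 109 and 107 against 98.1 and 92.4 CPM, near the level of empty droplets. Markers of TAL and thin limb, where *Bicc1* is highest, also differed. The 7 of TAL summed to 2216 and 3005 against 1572 and 1361 CPM in CNT. In PT they summed to 900 and 1022 against 882 and 526 CPM. The 8 of thin limb summed to 599 and 636 against 304 and 409 CPM in endothelial cells. In interstitial cells it was 199.5 and 178.8 against 167.5 and 125.7 CPM. Elsewhere in the 6 classes the groups overlapped for these lists. Their part in the *Bicc1* and *Glis2* values was not tested. Across all members, knockout mice were below control mice in 19 of 82 combinations and above them in 7, where 15% and 14.7% of tests over all genes had these orders.

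*Invs* in CD-ICs, which belong to the lineage in which Cre acts, had 90.3 and 99.6 CPM against 43.6 and 59.7 CPM (-0.88 ± 0.35), from 130 UMIs in all. The knockout values lay below both control values, as for 12.8% of all genes tested in CD-ICs. Within CD-IC nuclei the 7 markers of TAL summed to 2163 and 1453 CPM against 1066 and 1214 CPM. Of these 7, 1 was at 0 in control mouse 2 and in knockout mouse 2. The 9 CD-PC markers summed there to 570 and 550 CPM against 1034 and 659 CPM. The part of these differences in the *Invs* value was not tested. *Glis3* in podocytes had 148 and 19.0 CPM against 280 and 361 CPM (1.66 ± 0.62) from 63 UMIs. The knockout values lay above both control values, as for 17.2% of all genes tested in podocytes, and each value lay below the *Glis3* level in the empty droplets of the same mouse, which was 373, 299, 432 and 576 CPM.

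The change in CD-PCs was also set against that in TAL and in proximal tubule, where *Hoxb7Cre* is not active, as an interaction of genotype and class in edgeR. No member was called in either comparison, the adjusted p was 1.00 for each member, and 0 had an unadjusted p under 0.05. Over all genes 0.0747% were called for CD-PCs against TAL and 0.238% for CD-PCs against proximal tubule. The log2 difference of the changes, CD-PC minus TAL, was 0.44 ± 0.30 for *Pkhd1*, 0.44 ± 0.29 for *Glis3* and 0.34 ± 0.29 for *Bicc1*. With each mouse left out in turn it ranged from 0.045 to 0.86 for *Pkhd1*, from 0.29 to 0.60 for *Glis3* and from 0.14 to 0.57 for *Bicc1*. Against proximal tubule it was 0.57 ± 0.44 for *Pkhd1*, 0.42 ± 0.42 for *Glis3* and 0.11 ± 0.39 for *Bicc1*, with a range of 0.16 to 0.98 for *Pkhd1*, 0.26 to 0.59 for *Glis3* and -0.24 to 0.47 for *Bicc1*. The *Bicc1* change in TAL was therefore not shown to differ from that in CD-PCs.

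Genes of the same disease pathways were examined in 6 lists. No listed gene was called by edgeR in any of the 12 classes or 3 subclusters, and 25 of 712 tests in the classes and 7 of 179 in the subclusters had an unadjusted p under 0.05, where 2.94% and 2.87% of all tests did. In CD-PCs the 20 genes of nephronophthisis and related ciliopathies, which encode proteins of the ciliary base and shaft, had a median log2 change of -0.06 with 13 below 0, where all genes had a median of 0.00. The 17 genes of polycystic kidney and liver disease, several of which act in folding of membrane proteins in the endoplasmic reticulum, had a median of -0.01 with 9 below 0. The 11 genes of cilium assembly had a median of -0.08 with 6 below 0. Of the cyclic AMP pathway, which drives fluid secretion into cysts, 8 of 10 genes were tested, with a median of 0.18 and 3 below 0. Of planar cell polarity, which orients cells along the tubule, 10 of 13 were tested with a median of 0.03, and of relatives of the polycystins, fibrocystin and GLI-similar factors 5 of 11 with a median of 0.07.

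In Aqp3-high nuclei the medians of the lists ranged from -0.18 to 0.25, and all genes had -0.01. *Dcdc2a*, a nephronophthisis gene that encodes a microtubule-binding protein of the cilium, had an unadjusted p of 0.030 in CD-PCs, at 69.9 and 139 CPM against 55.4 and 60.6 CPM (-0.88 ± 0.35, adjusted p = 1.00 by edgeR). In Aqp3-high nuclei *Dcdc2a* had 24.4 and 82.0 CPM against 8.33 and 41.3 CPM (-1.68 ± 0.69), and the groups overlapped. *Umod*, which encodes uromodulin of TAL and is among the TAL markers, had 679 and 357 CPM there against 325 and 145 CPM (-1.07 ± 0.37). *Alg9*, which encodes a mannosyltransferase of glycoprotein synthesis, had 36.6 and 45.8 CPM in Aqp3-high nuclei of the control mice, 11.1 CPM in those of knockout mouse 1 and 0 UMIs in knockout mouse 2, which allows up to 20.6 CPM. With an adjusted p of 1.00 by edgeR, *Dcdc2a*, *Umod* and *Alg9* were not called. By the mean of the 2 control mice, 6 listed genes were highest in CD-PCs. Among them, *Avpr2*, the vasopressin receptor that raises cyclic AMP in principal cells, had 243 and 165 CPM and 57.4 CPM in CNT, the next class. *Muc1*, a mucin gene of dominant tubulointerstitial disease, had 326 and 248 CPM, and *Sec61b*, *Prkcsh*, *Vhl* and *Fjx1* were the others. For *Sec61b*, *Prkcsh* and *Fjx1*, CD-PCs of control mouse 2 lay below the mean of the next class, with *Prkcsh* at 42.5 against 57.2 CPM.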

How the data were processed

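Nuclei were profiled by the authors on the 10x Chromium 3′ platform, and their notes name Cell Ranger 3.0.2 and mm10. The deposited values are raw UMI counts, not normalised, with 31053 genes and 6794880 barcodes in each library. Whether intronic reads were counted is not given in the sources used here. From the 10000 deepest barcodes of a library, nuclei were retained at 500 to 4000 genes and under 5% mitochondrial UMIs, which left 7738 and 5430 nuclei of control mice 1 and 2 and 7998 and 6177 of knockout mice 1 and 2, with a median of 2628 UMIs. Integration and clustering used Seurat 5.3.0 (2000 variable genes, 30 dimensions, resolution 0.5, and 0.2 within CD-PCs). Clusters were named from listed markers by thresholds set after the clusters were seen, and 1034 nuclei of damaged, 334 of mixed and 229 of unnamed clusters were left out. Doublets were scored against simulated ones and kept, with their removal as an alternative. Sums per mouse and class were tested with edgeR 4.0.16 (quasi-likelihood test, TMM, at least 10 UMIs over the mice, Benjamini-Hochberg over all genes, threshold 0.05), which was tested on simulated data first. With 2 mice against 2, an exact permutation test cannot reach 0.05, so p-values rest on this model. Free RNA was measured in barcodes under 100 UMIs, and a count of 0 was taken to allow 3 counts, for counting error only. The alternatives were DESeq2 1.42.0, other scalings and filters, a replicate block, other resolutions, under 1% mitochondrial UMIs and each mouse left out, not all of them for every comparison. By rule the text names all members, the 3 genes most like each (1 is not reported here), listed genes that were called (0) and listed genes highest in CD-PCs. *Dcdc2a*, *Umod*, *Alg9*, *Slc12a1*, *Slc12a3* and *Tfap2a* were named outside it, after their values were seen. The members and lists were chosen with earlier results of these data known.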

Additional observations from a re-analysis of the deposited data

How the results depend on the processing

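No member was called in any class or CD-PC subcluster under any alternative run there. The comparison of CD-PCs with TAL and proximal tubule was rerun with library size scaling, without called doublets and with each mouse left out, and it called 0 members each time. The replicate numbers were not shown to pair the mice, since there are only 2 of each. Libraries of control and knockout mouse 1 held 42138345 and 44964099 UMIs, with median mitochondrial shares of 1.66% and 1.05%. Those of control and knockout mouse 2 held 24998797 and 22179410 UMIs, with 0.67% and 0.42%. The cause of this likeness was not tested. Over genes, same-numbered mice had correlated deviations of 0.18 to 0.53 in 11 classes and 0.0027 in immune cells. With the replicate number as a replicate block, 0 members were called in the 12 classes and 0 in the subclusters, where 0.392% and 0.18% of tests over all genes were called, 1.1% in TAL, and the lowest adjusted p was 0.055, for *Bicc1* in TAL (range 0.055 to 1.00 over alternatives). Among levels in control mice, calls of lower classes went from 19 to 5 with nuclei under 1% mitochondrial UMIs, as those of all genes went from 4.3% to 0.637%, and the cause was not tested. The direction of 3 values turned with a mouse left out. The *Bicc1* change in CD-PCs ranged from -0.54 to 0.077 and became 0.077 without control replicate 2. The *Pkhd1* change in CD-PCs ranged from -0.034 to 0.82 and became -0.034 without control replicate 1. The *Bicc1* difference of CD-PCs minus proximal tubule ranged from -0.24 to 0.47 and became -0.24 without control replicate 1. The *Bicc1* change stayed between -0.71 and -0.48 in TAL and between -0.44 and -0.31 in PT. *Bicc1* had both knockout mice below both control mice in 5 to 7 classes across the filters on nuclei, doublets and resolution, and *Glis2* in 3 to 6. Levels of members with few UMIs, such as *Pkd1* in interstitial cells, are limited by depth, and 2 mice per group limit every comparison.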

Other observations

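A cluster of 229 nuclei led by *Tshz2*, *Slit3* and *Slc14a2* was given no class, since it held markers of both proximal tubule and thin limb, and it entered no comparison. In it *Bicc1* had 1980 and 2827 CPM in control mice 1 and 2 and 1377 and 1533 CPM in knockout mice 1 and 2. *Pkhd1* had 2925 and 3336 CPM against 3063 and 3423 CPM, and *Glis3* had 1961 and 1928 CPM against 1768 and 2090 CPM, values that overlapped between the groups.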
